A study of Homo sapiens with 6 samples.

Results

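The tripartite motif (TRIM) genes were examined in HCT-116 cells, an established human colorectal carcinoma line. Every row of the deposited expression table that named a gene as TRIM followed by a number was taken, which gave 54 of 27918 rows. Poly(A) RNA was sequenced from 3 libraries of cells transfected with a negative control GapmeR (GapNC) and from 3 libraries of cells transfected with a GapmeR against the long noncoding RNA CASC9 (GapC9). A GapmeR is a short antisense oligonucleotide whose DNA center lets RNase H cut the paired RNA. All 6 libraries came from the same line, so both groups share its background and differ by label only in the GapmeR received. The labels do not say whether the libraries of a group came from separate cultures, and p-values therefore measure the spread between libraries.

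TRIM proteins carry, from the N-terminus, a RING finger, 1 or more B-box zinc fingers and a coiled coil, followed by a C-terminal domain that sorts them into classes. The RING finger takes ubiquitin from an E2 conjugating enzyme and passes it to a substrate, so most TRIM proteins are E3 ubiquitin ligases, and some members lack the RING and act through binding alone. In epithelial and tumor cells the family is known for roles in antiviral signaling, in the turnover of p53 and of SMAD proteins, in chromatin repression and in cytoskeletal organization.

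Before the family is described, the target and the libraries need a short account. CASC9 was listed at 0, 0.0108 and 0 FPKM in GapNC libraries 1, 2 and 3 and at 0.0528, 0.107 and 0 FPKM in GapC9 libraries 1, 2 and 3. The target was thus near 0 in all 6 libraries and was not lower under the GapC9 label (exact two-sided permutation test, p = 0.400, smallest possible 0.1), so the table gives no check of the knockdown, and "GapC9" below means the libraries labelled GapC9. The study itself reported, by RT-qPCR, reduced CASC9 in HCT-116 cells transfected with this GapmeR. FPKM is the number of fragments per kilobase of transcript, scaled to the mapped fragments of the library, and as a measure per length it allows levels to be compared between genes. The depth was 22.9 to 24.2 M (mega) fragments per library if the commonest step between low values is 1 fragment, and 1 fragment on 1 kb is then worth 0.0413 to 0.0437 FPKM. GapNC 1 stood apart in base composition. The rank correlation across rows between GC content and the log2 deviation from the row mean was 0.616 in GapNC 1 and lay between −0.376 and 0.0287 in the other libraries. Of the epithelial markers, EPCAM, CDH1, KRT8, KRT18, KRT19 and CDX2 were expressed, whereas VIL1 and CDH17, which also mark colonic epithelium, did not exceed 0.0481 FPKM. The immune genes PTPRC, CD3E and LYZ did not exceed 0.0299 FPKM, and CD68 lies in a joined row. Of the stromal genes, COL1A1 read 1.06 to 1.54 FPKM, and COL1A2, PECAM1 and VWF did not exceed 0.0467 FPKM.

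Promoter sequence is shown for the members that passed an unadjusted p of 0.05 and that had exactly 1 RefSeq window, which were TRIM3, TRIM65 and TRIM68. Each line gives the 250 bases before the annotated start, 5′ to 3′ on the strand of the gene, in GRCh38.p14 from RefSeq, with GGGCGG or its reverse complement CCGCCC (the GC box) in capitals.
TRIM3, chr11:6474460-6474709, minus strand: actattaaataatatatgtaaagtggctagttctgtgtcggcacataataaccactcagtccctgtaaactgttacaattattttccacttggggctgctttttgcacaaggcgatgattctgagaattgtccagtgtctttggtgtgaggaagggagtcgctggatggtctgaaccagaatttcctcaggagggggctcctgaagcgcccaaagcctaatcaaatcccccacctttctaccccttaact
TRIM65, chr17:75896952-75897201, minus strand: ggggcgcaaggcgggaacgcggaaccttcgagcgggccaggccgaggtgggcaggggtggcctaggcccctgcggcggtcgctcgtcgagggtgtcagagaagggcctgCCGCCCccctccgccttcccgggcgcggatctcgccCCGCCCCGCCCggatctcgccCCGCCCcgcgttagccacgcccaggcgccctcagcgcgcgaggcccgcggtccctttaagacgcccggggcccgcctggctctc
TRIM68, chr11:4608232-4608481, minus strand: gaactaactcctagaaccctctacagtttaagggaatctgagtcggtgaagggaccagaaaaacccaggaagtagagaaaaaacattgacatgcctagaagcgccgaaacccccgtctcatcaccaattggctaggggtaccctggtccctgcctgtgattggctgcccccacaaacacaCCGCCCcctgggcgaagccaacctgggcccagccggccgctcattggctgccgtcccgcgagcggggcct

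The windows differed in composition. TRIM3, lower in GapC9 (described further on), had 45.2% GC, 4 CpG dinucleotides and 0 GC boxes. TRIM65 and TRIM68, whose GapC9 values lay above their GapNC values, had 78.0% and 58.8% GC, 35 and 12 CpG dinucleotides, and 4 and 1 GC boxes. The median was 59.0% GC and 11.0 CpG over member windows, and 58.0% and 11.0 over all windows, so TRIM68 lay near the median. These genes were picked by p and by window number, and no link between composition and direction is read. TRIM68 also held 4 CCAAT motifs, counted on both strands, so that the stretch CCAATTGG was counted once on each strand. RefSeq windows were at hand for 42 of the 54 members, 60 windows in all, and not for TRIM4, TRIM8, TRIM13, TRIM27 and TRIM35. Among these 60 windows, 48.3% held a GC box, 41.7% a CCAAT motif, 3.3% an E-box (CACGTG) and 8.3% a TATAAA motif. Over all 35116 windows of the same length the shares were 42.6%, 32.0%, 6.3% and 10.7%. These motif counts describe the letters in the window and were not tied to any binding data.

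The summed level of the family was carried by few members. Of the 54 members, 46 averaged 0.1 FPKM or more across the 6 libraries, the filter used here, and were tested, 35 had a mean of at least 1 FPKM, and 6 had a mean of at least 10 FPKM. The 8 members below the filter were TRIM22, TRIM29, TRIM31, TRIM34, TRIM50, TRIM63, TRIM67 and TRIM71. TRIM50, TRIM63 and TRIM71 were listed at 0 in at least 1 library, and all 3 are known from stomach, muscle or early embryonic cells. Members sit on 17 chromosomes, with 10 on chromosome 11, 8 on chromosome 1 and 7 on chromosome 6.

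TRIM28 (KAP1), the co-repressor that KRAB zinc finger proteins bring to chromatin, was the most abundant member. It read 212, 141 and 135 FPKM in GapNC libraries 1 to 3 and 162, 139 and 123 FPKM in GapC9 libraries 1 to 3. GapNC 1 was the highest library, and the groups overlapped. TRIM28 made up 42.0% to 50.8% of the summed FPKM of the members in each library. Without TRIM28, the members summed to 205, 189 and 187 FPKM in GapNC and to 165, 170.4 and 169 FPKM in GapC9, and every GapC9 library lay below every GapNC library. With TRIM28 included, the sums ran from 322 to 417 FPKM in GapNC and from 292 to 328 FPKM in GapC9 and overlapped. From GapNC to GapC9, the mean of TRIM8 went from 17.3 to 6.28 FPKM and that of TRIM35 from 14.7 to 6.65 FPKM. Much of the gap between the sums without TRIM28 came from these genes. Among single rows tested, the groups did not overlap in 34.2%. These sums are descriptive, and in bulk RNA a smaller number of expressing cells cannot be told apart from less RNA per cell.

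Next in level were TRIM47, TRIM26 and TRIM37. TRIM47, a SPRY ligase, averaged 23.0 ± 7.48 FPKM (SD, n = 3) in GapNC and 18.7 ± 0.510 FPKM in GapC9. TRIM26, a SPRY ligase of the major histocompatibility complex region, averaged 18.1 ± 1.31 FPKM and 17.8 ± 1.06 FPKM. TRIM37, the only member with a MATH domain and a regulator of centrosomes and peroxisomes, averaged 16.1 ± 1.66 FPKM and 17.3 ± 0.894 FPKM. In these 3 genes the groups overlapped, and the log2 fold changes (GapC9 minus GapNC, on log2(FPKM + 0.1)) of −0.25, −0.028 and 0.10 passed no threshold. The sign of TRIM47 turned with a GC correction, and that of TRIM26 with a GC correction or either rescaling of the libraries.

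**Figure D1:**
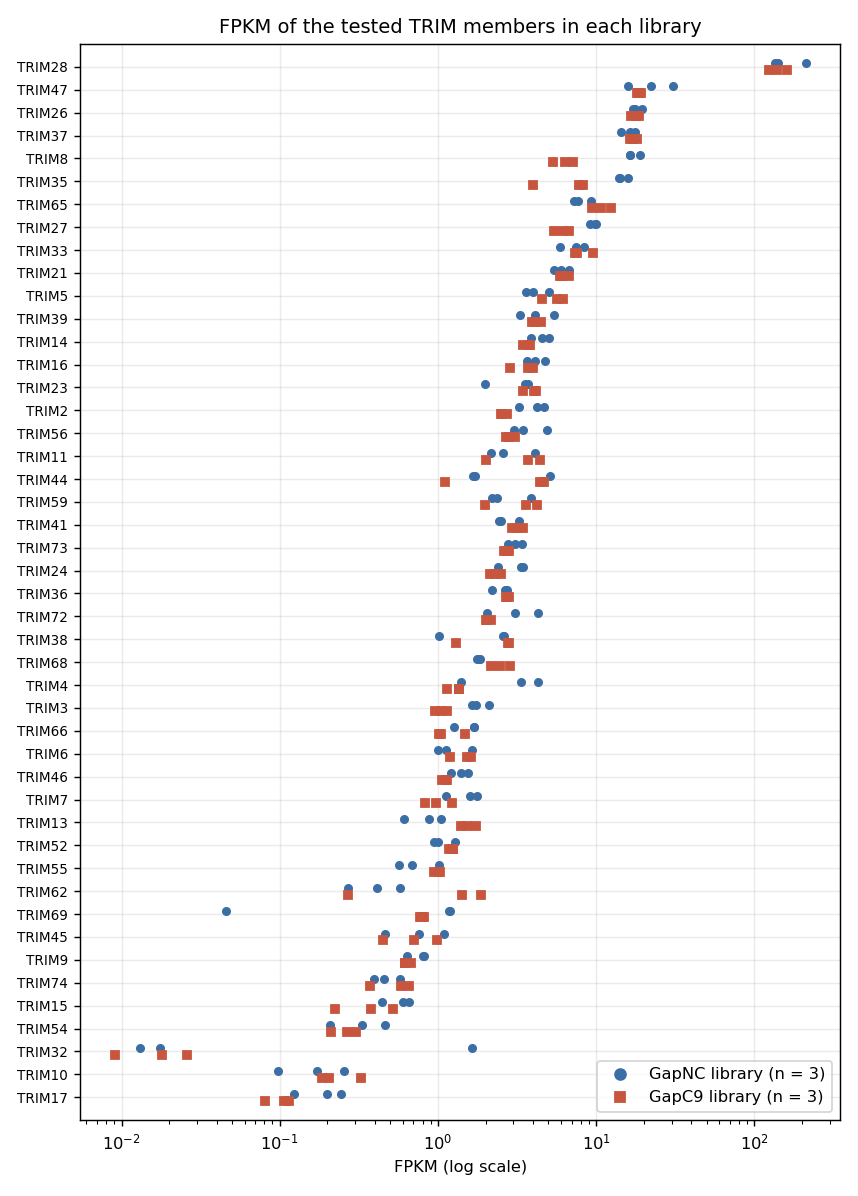
FPKM (log axis) of the 46 tested TRIM members in each of the 3 GapNC (circles) and 3 GapC9 (squares) libraries, ordered by mean level. TRIM28 lies above 100 FPKM in every library, TRIM8 and TRIM35 show separate groups, and TRIM32 has a single library, GapNC 3, far from the other 5.

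In GapC9, 3 members fell and 0 rose at an adjusted p under 0.05 (limma, Benjamini-Hochberg over 16028 rows). The members that fell were TRIM8, TRIM27 and TRIM3, which is 6.52% of those tested, against 6.99% of all rows tested (1.89% higher and 5.10% lower). By the thresholds the study used (a ratio of group means at or above 2, or at or below 0.5, together with an unadjusted p under 0.05), 3 members were called lower and 0 higher. These were TRIM8, TRIM35 and TRIM4, again 6.52%, against 6.42% of all rows (2.10% higher and 4.32% lower). Both shares lay near those of the whole table, and 5 members were called by at least 1 of the rules.

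TRIM8, a RING ligase without a C-terminal domain that is known from NF-κB signaling and from the stabilization of p53, had the lowest adjusted p of the family. The gene lies on the plus strand at chr10:102642310-102660680 (GENCODE release 29, GRCh38). It read 19.0, 16.3 and 16.5 FPKM in GapNC and 7.13, 5.32 and 6.40 FPKM in GapC9. Every GapC9 library was far below every GapNC library, with no overlap. The mean fell from 17.3 ± 1.52 to 6.28 ± 0.911 FPKM (SD, n = 3 each), with a log2 fold change of −1.45 (SE 0.14, limma adjusted p = 0.0159). Without GapNC 1, the library with the strongest GC correlation, TRIM8 fell by 1.38 on the log2 scale (limma adjusted p = 0.0285). GapC9 2 and GapC9 3, with GC correlations of −0.336 and −0.376, stayed in that fit, so it does not even out GC content. With the GC correction described further on, the log2 fold change of TRIM8 was −1.14. Leaving out each library in turn gave adjusted p-values of 0.0285 to 0.0668, under 0.05 in 3 of 6 fits, and the call was lost without GapNC 2, GapC9 2 or GapC9 3. An antisense gene, AL391121.1, overlaps TRIM8, and their reads cannot be told apart unless strand was used.

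TRIM27 (RFP), a SPRY ligase and transcriptional co-repressor at chr6:28903002-28923989 on the minus strand, changed less in size. It read 10.0, 9.13 and 9.83 FPKM in GapNC and 6.77, 5.40 and 6.20 FPKM in GapC9. The 3 values of each group lay close together and the groups were apart. Its mean fell from 9.66 ± 0.462 to 6.12 ± 0.692 FPKM, with a log2 fold change of −0.65 (SE 0.12, limma adjusted p = 0.0366).

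TRIM3, an NHL ligase known mainly from brain, lies at chr11:6448613-6474459 on the minus strand, directly downstream of the window printed above. It read 2.09, 1.64 and 1.75 FPKM in GapNC and 1.04, 1.15 and 0.959 FPKM in GapC9. The highest GapC9 library stayed below the lowest GapNC library. Its mean fell from 1.82 ± 0.235 to 1.05 ± 0.0973 FPKM, with a log2 fold change of −0.74 (SE 0.15, limma adjusted p = 0.0433). TRIM27 and TRIM3 passed in 0 of the 6 fits with 1 library left out, where their adjusted p-values ran from 0.0653 to 0.125 and from 0.0704 to 0.140. TRIM3 also missed the adjusted p with median scaling (0.0523), quantile normalization (0.0627) and no filter (0.0812), and TRIM27 with no filter (0.0543) and with limma without a trend (0.0508). In those 6 fits the share of all rows past the adjusted p was itself only 0.200% to 5.05%.

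TRIM35 and TRIM4 met the fold and the unadjusted p without passing the adjustment. TRIM35, a SPRY ligase studied in blood cell lineages and in the control of pyruvate kinase, read 15.8, 14.2 and 14.0 FPKM in GapNC and 3.97, 7.78 and 8.21 FPKM in GapC9. The groups were apart, and GapC9 1 was the lowest library by a wide margin. The log2 fold change was −1.20 (SE 0.29, limma unadjusted p = 0.00583, adjusted p = 0.0634), and −0.87 without GapC9 1, where the ratio no longer met the fold threshold. The adjusted p of TRIM35 stayed between 0.0513 and 0.148 over the alternatives.

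TRIM4, a SPRY ligase studied in RIG-I signaling, read 3.37, 4.31 and 1.39 FPKM in GapNC and 1.35, 1.36 and 1.15 FPKM in GapC9. GapNC 3 was at the level of the GapC9 libraries, and the groups were separated by a margin that is small beside the spread within GapNC. The log2 fold change was −1.04 (SE 0.41, limma unadjusted p = 0.0432, adjusted p = 0.179). It was −1.50 without GapNC 3 and −0.72 without GapNC 2, so the size of the difference rested on which control library was used. The fold and unadjusted p were both met in 1 of the 6 fits with a library left out, that without GapNC 3, and were not met with median scaling, quantile normalization or the GC correction.

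**Figure D2:**
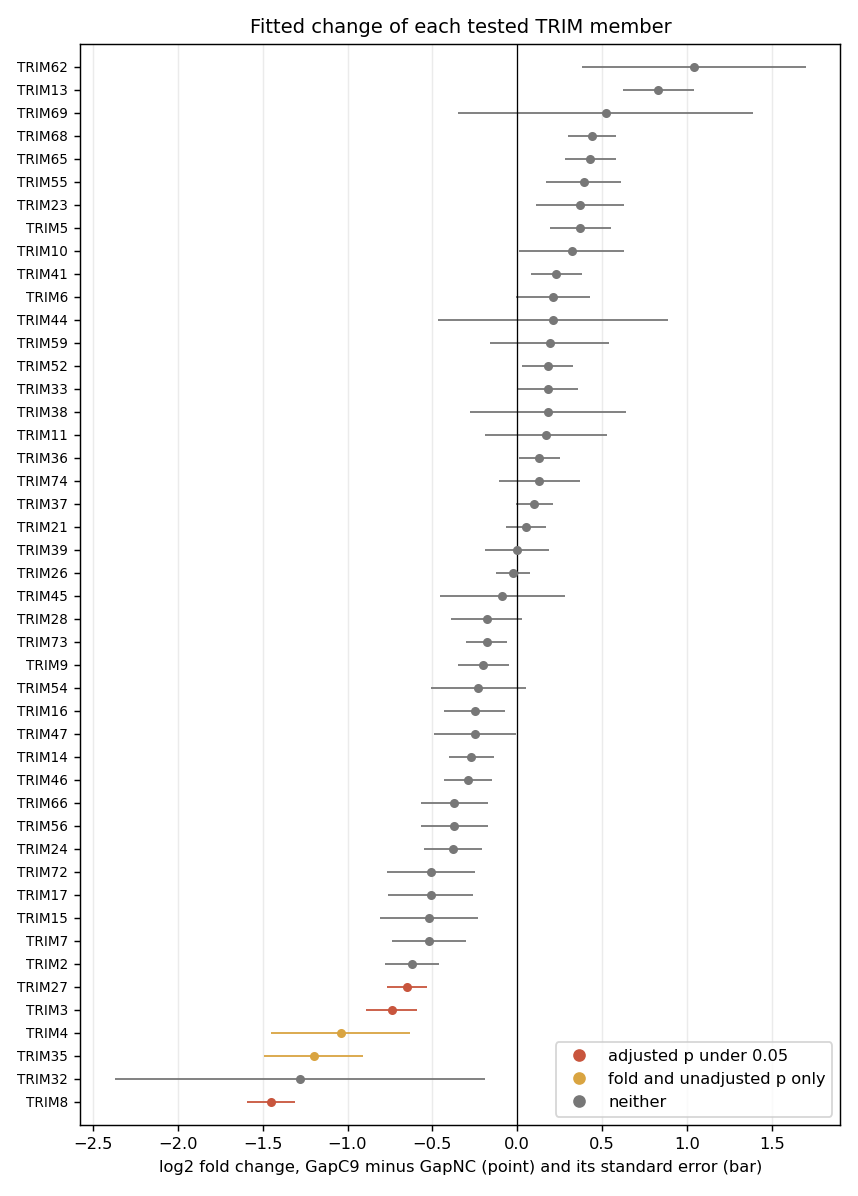
Fitted log2 fold change of each tested member, GapC9 minus GapNC (point), with its standard error (bar) from limma. The 3 members past the adjusted p, TRIM8, TRIM27 and TRIM3, lie below 0, and TRIM62 and TRIM13 lie highest without passing.

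Across the family the differences were small and had no shared direction. Of the 46 tested members, 21 had a log2 fold change above 0 and 25 below 0 (54.3% below, against 56.4% of all rows), with a median of −0.058 against −0.076 over all rows tested. The share under 0.5 in size was 69.6% for members and 67.7% for all rows. At an unadjusted p under 0.05, 9 members passed (19.6%, against 25.9% of all rows). Of these 3 were higher and 6 lower, where 9.09% and 16.8% of all rows were. The groups did not overlap in 12 members (26.1%, against 34.2% of all rows), 3 higher and 9 lower, where the shares of all rows were 12.6% and 21.6%. Rescaling the libraries moved the median of all rows from −0.076 to 0.0051 (median scaling) or 0.0042 (quantile normalization) and that of the members to 0.026 or 0.017, so no sign is read from the median of the family.

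The NHL class, named for a C-terminal propeller that binds RNA or partner proteins, had 3 tested members. Of these 1, TRIM3, passed the adjusted p, as did 6.99% of all rows. All 3 log2 fold changes were below 0 (median −0.74), as were 56.4% of all rows. That of TRIM32 rested on 1 library, GapNC 3, through which alone it passed the filter, and was 0.026 without it. No direction is read for the class. TRIM2, a ligase of neurofilament light chain, read 3.26, 4.25 and 4.69 FPKM in GapNC and 2.49, 2.56 and 2.72 FPKM in GapC9. The groups did not overlap, and GapNC 1 was the lowest control. Its log2 fold change of −0.62 missed the adjusted threshold (SE 0.16, limma adjusted p = 0.0764), whereas without GapNC 1 it was −0.76 (limma adjusted p = 0.0357).

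TRIM32, an NHL ligase whose variants cause limb-girdle muscular dystrophy, rested on 1 library. It read 0.0176, 0.0131 and 1.64 FPKM in GapNC and 0.0260, 0.0179 and 0.00909 FPKM in GapC9. Only GapNC 3 stood above the level of a few fragments. The log2 fold change of −1.28 (SE 1.09, limma adjusted p = 0.503) became 0.026 without GapNC 3, and no difference between the groups can be read for this gene.

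The transmembrane class held TRIM13 and TRIM59, both anchored in the endoplasmic reticulum. TRIM13, a ligase of endoplasmic reticulum-associated degradation whose row is joined with KCNRG, read 0.875, 1.05 and 0.615 FPKM in GapNC and 1.75, 1.53 and 1.40 FPKM in GapC9. Every GapC9 library was above every GapNC library, which was the clearest separation upward in the family by unadjusted p. The log2 fold change was 0.83 (SE 0.21, limma unadjusted p = 0.00773, adjusted p = 0.0727), and the adjusted p stayed above 0.05 under all alternatives (0.0544 to 0.196). DLEU2, which overlaps TRIM13 on the opposite strand, and KCNRG within the row leave the source of the reads uncertain. TRIM59, joined with IFT80 and AC079594.2, averaged 2.82 ± 0.935 FPKM in GapNC and 3.29 ± 1.18 FPKM in GapC9 (log2 fold change 0.19, limma adjusted p = 0.771).

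The TIF1 class joins the TRIM motif to a PHD finger and a bromodomain that read histone tails. Its 4 members, TRIM24, TRIM28, TRIM33 and TRIM66, had a median log2 fold change of −0.28. Of these 0 passed the adjusted p (lowest limma adjusted p = 0.230), against 6.99% of all rows. At an unadjusted p of 0.05, 0 passed, against 25.9% of all rows. TRIM24 (TIF1α), a nuclear receptor coregulator and ligase of p53, averaged 3.07 ± 0.573 FPKM in GapNC and 2.32 ± 0.189 FPKM in GapC9 (log2 fold change −0.38). TRIM28 had a log2 fold change of −0.18 (SE 0.21, limma adjusted p = 0.623), which was 0.028 without GapNC 1 and 0.084 with a GC correction. TRIM66, which binds heterochromatin protein, averaged 1.54 ± 0.246 and 1.18 ± 0.261 FPKM (log2 fold change −0.37).

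The members tied to TGF-β signaling, a pathway the study examined, were TRIM33 and TRIM62, and neither passed. TRIM33 (TIF1γ), which binds SMAD proteins and ubiquitinates SMAD4, read 5.89, 7.44 and 8.34 FPKM in GapNC and 7.35, 7.60 and 9.58 FPKM in GapC9. The groups overlapped, with a log2 fold change of 0.18 (SE 0.18, limma adjusted p = 0.556). TRIM62 (DEAR1), a ligase of SMAD3, read 0.411, 0.572 and 0.272 FPKM in GapNC and 1.86, 1.42 and 0.269 FPKM in GapC9.

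GapC9 1 and 2 were thus above every control for TRIM62, while GapC9 3 was the lowest library of all. The log2 fold change was 1.04 (SE 0.66, limma adjusted p = 0.373). It was 1.78 without GapC9 3 (limma adjusted p = 0.0943), where it met the fold and the unadjusted p, and 0.57 without GapC9 1. If the commonest low step is 1 fragment, the 0.269 FPKM of GapC9 3 stands for about 21.9 fragments and the 1.86 FPKM of GapC9 1 for about 148.

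A list of 6 members linked to p53, which does not hold TRIM8 described above, had 5 tested and 0 past the adjusted p. These were TRIM13, TRIM24, TRIM28, TRIM32 and TRIM59, given above, with a median log2 fold change of −0.18. TRIM13 alone was past an unadjusted p of 0.05, as were 25.9% of all rows, and 6.99% of all rows passed the adjusted p. TRIM32 passed the filter only through GapNC 3, so no direction is read from this median. TRIM29 was below the filter and lay between 0.00413 and 0.0606 FPKM.

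A list of members known from interferon and antiviral responses held 9 members and did not include TRIM4 or TRIM65, which are also studied in RNA sensing and each passed the unadjusted p in opposite directions. Of the 9, 7 were tested, 4 had a log2 fold change above 0 and 3 below 0, with a median of 0.051. Of these 0 passed the adjusted p (lowest limma adjusted p = 0.254) or the unadjusted p, against 6.99% and 25.9% of all rows. TRIM21, the cytosolic antibody receptor, averaged 6.04 ± 0.649 FPKM in GapNC and 6.25 ± 0.397 FPKM in GapC9. TRIM5, which binds retroviral capsids, averaged 4.21 ± 0.740 and 5.47 ± 0.842 FPKM (log2 fold change 0.37). TRIM14, a mitochondrial adaptor without a RING, averaged 4.47 ± 0.575 and 3.67 ± 0.212 FPKM (log2 fold change −0.27), and its sign turned with a GC correction.

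The other tested antiviral members were TRIM6, TRIM26, TRIM38 and TRIM56. TRIM56, a ligase of innate DNA and RNA sensing, had a log2 fold change of −0.37 (limma adjusted p = 0.297). TRIM6 and TRIM38, which act in interferon and Toll-like receptor signaling, had 0.21 and 0.18, and the sign of TRIM38 turned without GapNC 1 (−0.24). TRIM22 and TRIM34, which sit beside TRIM6 and TRIM5 on chromosome 11 and are strongly interferon-inducible in many cells, were below the filter, with TRIM22 between 0.0235 and 0.113 FPKM and TRIM34 between 0.00837 and 0.166 FPKM.

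The SPRY class, the largest, binds substrates through a B30.2/SPRY domain. Of its 26 rows 23 were tested, 11 with a log2 fold change above 0 and 12 below 0 (median −0.0021). TRIM27 alone passed the adjusted p, as did 6.99% of all rows. TRIM65, a ligase in MDA5 signaling, read 9.27, 7.71 and 7.25 FPKM in GapNC and 12.5, 10.8 and 9.47 FPKM in GapC9. The lowest GapC9 library was just above the highest GapNC library, which was GapNC 1. The log2 fold change was 0.43 (SE 0.15, limma adjusted p = 0.151), and with a GC correction it was 0.75 (limma adjusted p = 0.00693).

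TRIM68, a SPRY ligase known as a coactivator of the androgen receptor, read 1.76, 1.85 and 1.83 FPKM in GapNC and 2.87, 2.47 and 2.18 FPKM in GapC9. The controls were nearly equal and all 3 GapC9 libraries lay above them. Its log2 fold change was 0.44 (SE 0.14, limma adjusted p = 0.113). TRIM65 and TRIM68 passed the adjusted p only under the GC correction among the alternatives run, and neither is counted as changed.

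TRIM16, a RING-less member joined with CDRT1 and AC005324.3, had a log2 fold change of −0.25, and its near-copy TRIM16L, which is not a numbered member, had −0.13. TRIM39, joined with the read-through TRIM39-RPP21 and with RPP21, averaged 4.26 ± 1.06 FPKM in GapNC and 4.18 ± 0.272 FPKM in GapC9. TRIM73, which shares near-identical copies with TRIM74 and TRIM50 on chromosome 7 and is joined with STAG3L1 and NSUN5P1, had a log2 fold change of −0.18, so reads may be split among the copies. None of these rows passed a threshold.

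TRIM44 and TRIM69 were singled out after their values were seen, for their spread within a group. TRIM44, a RING-less member with a zinc finger like that of ubiquitin proteases, read 5.09, 1.67 and 1.72 FPKM in GapNC and 1.11, 4.41 and 4.67 FPKM in GapC9. Libraries near 1 to 2 FPKM and libraries near 4 to 5 FPKM occurred in both groups. TRIM69, a SPRY ligase of the spindle, read 1.19, 1.18 and 0.0456 FPKM in GapNC against 0.815, 0.769 and 0.797 FPKM in GapC9, with GapNC 3 far below the other 5. Ranges over 2-fold within a group occurred in 14 members (30.4%), and in 29.4% of all tested rows without a 0.

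**Figure D3:**
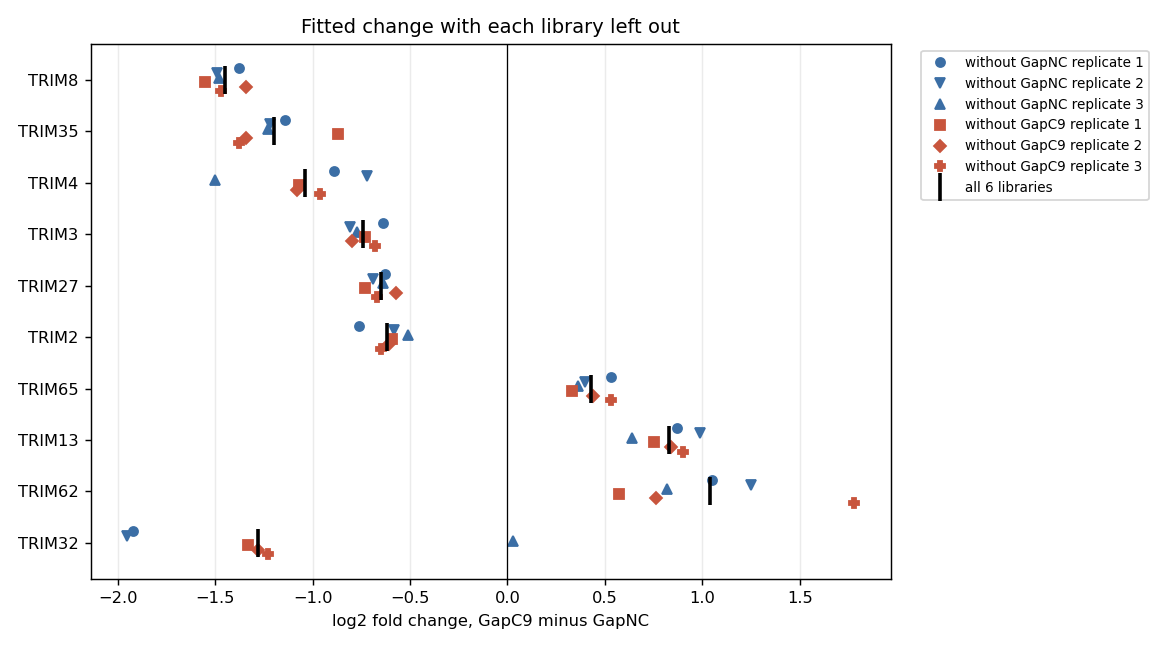
Log2 fold change, GapC9 minus GapNC, of 10 members with all 6 libraries (black bar) and with each library left out (colored symbols). TRIM8, TRIM3 and TRIM27 keep narrow ranges below 0, whereas TRIM32 runs from −1.95 to 0.026 and TRIM62 from 0.57 to 1.78.

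The remaining classes are summarized by counts. The COS-box class, whose members (TRIM9, TRIM36, TRIM46 and TRIM67) bind microtubules, had 3 tested with log2 fold changes from −0.29 to 0.13. In the MURF class of muscle ligases, TRIM54 and TRIM55 were tested, at −0.23 and 0.39, and TRIM63 was listed at 0 in 5 of 6 libraries. In the class without a C-terminal domain 5 of 6 rows were tested, and TRIM8 alone passed the adjusted p, as did 6.99% of all rows. TRIM23, TRIM37 and TRIM45, each with a domain of its own (ARF, MATH and filamin), lay between −0.088 and 0.37. Of 7 members usually restricted to muscle, erythroid or germ cells, 5 passed the filter and 0 passed an unadjusted p of 0.05, against 25.9% of all rows.

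GC content moved with the differences of the members about as it did with those of the whole table. Over the 46 tested members the Spearman correlation between the mean GC content of the annotated transcripts and the log2 fold change was −0.270, and over 15909 tested rows it was −0.250. These are correlations across genes, which share the same 6 libraries and are not independent replicates. TRIM8 has 61.2% GC, TRIM35 57.2% and TRIM3 56.9%, all above the member median of 52.1%, whereas TRIM27 has 48.1% and TRIM4 45.9%. With a lowess correction of each library on GC content, TRIM8, TRIM27 and TRIM3 had log2 fold changes of −1.14, −0.61 and −0.53 (limma adjusted p = 0.00548, 0.0209 and 0.0336). The same correction added TRIM41, TRIM65 and TRIM68 as higher, while the share of all rows called went from 6.99% to 14.8%.

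Some neighboring members had log2 fold changes of opposite sign and others of the same sign. TRIM47 and TRIM65 lie 1.76 kb apart on chromosome 17 and had log2 fold changes of −0.25 and 0.43. TRIM11 and TRIM17, 1.10 kb apart on chromosome 1, had 0.17 and −0.51, and TRIM10 and TRIM15, 2.27 kb apart on chromosome 6, had 0.32 and −0.52. TRIM41 and TRIM52, 18.6 kb apart on chromosome 5, had 0.23 and 0.18, and TRIM15 and TRIM26, 11.8 kb apart, had −0.52 and −0.028. None of these genes passed the adjusted p with all 6 libraries and no correction. With the GC correction TRIM47 was 0.14 and TRIM65 0.75, so this pair then shared a sign. TRIM26 turned positive with the GC correction or either rescaling. The SE was 0.36 for TRIM11 and 0.10 for TRIM26, and no result is read from these signs.

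TRIM proteins that carry other symbols were read beside the numbered members. Of 7 listed, 4 were tested, all with a log2 fold change below 0, as were 56.4% of all rows, and the 2 midline genes passed the adjusted p, as did 6.99% of all rows. MID1, a microtubule-bound ligase that degrades the catalytic subunit of PP2A, read 6.84, 7.90 and 8.06 FPKM in GapNC and 4.47, 4.60 and 5.22 FPKM in GapC9, and it fell by 0.66 on the log2 scale (SE 0.12, limma adjusted p = 0.0362). Its paralog MID2 read 1.96, 1.97 and 1.77 FPKM and 1.20, 1.13 and 0.907 FPKM, and fell by 0.77 on the log2 scale (SE 0.15, limma adjusted p = 0.0392). In both genes the groups were apart. With 1 library left out, the limma adjusted p was 0.0375 to 0.132 for MID1, under 0.05 only without GapNC 1, and 0.0770 to 0.127 for MID2. PML, the organizer of nuclear bodies, was −0.19 and TRIML2 −0.28, neither past a threshold, and TRIML1 was listed at 0 in 5 libraries.

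Ubiquitin genes and the E1 and E2 enzymes that feed RING ligases formed 21 rows, all tested. At the adjusted p 2 were lower and 0 higher, against 6.99% of all rows, and the median log2 fold change was 0.13. UBE2E2, an E2 and the least abundant of the list, read 1.83, 1.85 and 2.09 FPKM in GapNC and 0.953, 0.767 and 0.977 FPKM in GapC9, and fell by 1.02 on the log2 scale (SE 0.14, limma adjusted p = 0.0239). UBE2L3, an E2 with broad ligase partners, fell by 0.45 on the log2 scale (limma adjusted p = 0.0495), a call lost with either other pseudocount and with either rescaling. With 1 library left out, UBE2E2 and UBE2L3 passed only in the fit without GapNC 1. The E1 UBA1 averaged 77.5 ± 14.8 FPKM in GapNC and 81.6 ± 3.59 FPKM in GapC9, and the polyubiquitin gene UBB, the most abundant, 239 ± 44.9 and 206 ± 22.5 FPKM.

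Genes that work with TRIM28 on chromatin formed 15 rows, of which 1 was higher and 1 lower at the adjusted p, where 1.89% and 5.10% of all rows were (median log2 fold change 0.0080). MPHOSPH8 and FAM208A (TASOR) encode partners in the HUSH silencing complex. MPHOSPH8, in a row joined with PSPC1-AS2, read 6.20, 6.76 and 6.51 FPKM in GapNC and 10.9, 11.8 and 8.87 FPKM in GapC9, and rose by 0.68 on the log2 scale (SE 0.14, limma adjusted p = 0.0429). FAM208A read 3.67, 4.27 and 4.57 FPKM and 2.30, 2.57 and 2.79 FPKM, and fell by 0.68 on the log2 scale (SE 0.14, limma adjusted p = 0.0434). Within each of these genes the groups were apart. With 1 library left out, FAM208A passed only without GapNC 1 and MPHOSPH8 in 0 of the 6 fits. CBX1, the most abundant, and PPHLN1, the least, had log2 fold changes of −0.40 and −0.64 and did not pass. CBX1 read 79.5, 86.4 and 69.0 FPKM in GapNC and 82.3, 30.6 and 81.2 FPKM in GapC9. Its log2 fold change (SE 0.40) thus rested on GapC9 2. UHRF1 had −0.66 (limma adjusted p = 0.0574) and passed in some other settings, among them a filter at 1 FPKM and quantile normalization.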

How the data were processed

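Poly(A) RNA of 3 GapNC and 3 GapC9 libraries of HCT-116 cells was sequenced as paired ends. The authors mapped the reads with HISAT to the UCSC human genome and computed the deposited FPKM values with StringTie. The processing notes of the submitters list Bowtie 0.12.2, HISAT2 2.0 and StringTie 1.3.0. These notes also name mm8, a mouse build, with no role. The human build and the use of strand are not given in the sources used here. StringTie can join neighboring genes in a row, and FPKM falls for other genes when abundant RNAs rise. The deposited columns of the authors' own comparison (fold change and p) were not used, and 0 other columns of library values were left out.

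Groups came from the GapmeR label of each library. limma 3.58.1 (R 4.3.3; lmFit, then eBayes with a trend) was fitted to log2(FPKM + 0.1) with all 6 libraries, over the 16028 rows that averaged 0.1 FPKM or more, and p-values were adjusted by Benjamini-Hochberg over these rows. The pseudocount makes fold changes of low genes smaller, and the filter removes the lowest rows. The count-based test of the study was not repeated, since FPKM are not counts. Depth was estimated from the steps between low values, so no counting intervals are given. The fit was also run on simulated data with independent noise in each row. Those data held no GC shift shared by a library, so that run does not cover such shifts. GC content, positions and overlapping genes came from GENCODE release 29 (27771 of 27918 rows matched by Ensembl transcript) and promoters from RefSeq. Tables and figures were made in Python 3.11.15.

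Named with values were members past either call, the 8 highest by mean FPKM, tested members of the TIF1, TGF-β, p53, antiviral, NHL and transmembrane lists, and joined rows. TRIM44, TRIM68 and TRIM69 were added after their values were seen, as were the other members given single values. The members, the lists and these rules were chosen with earlier results of these data known. Some family members may not be reported here. Alternatives were pseudocounts of 1 and 0.01, other filters, 2 rescalings, a GC correction (lowess, span 0.3), other variance models, the fitted fold change, a replicate block and each library left out.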

Additional observations from a re-analysis of the deposited data

How the results depend on the processing

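Over all settings, 20 log2 fold changes of named members turned sign, and none of these was of TRIM8, TRIM27 or TRIM3. At the adjusted p, 1 of 54 members was called with no filter, against 1.76% of all rows. With the GC correction 6 of 46 were called (TRIM8, TRIM27 and TRIM3 lower, TRIM41, TRIM65 and TRIM68 higher), against 14.8% of all rows. With 1 library left out 0 to 2 were called, against 0.200% to 5.05% of all rows. Past the fold and unadjusted p there was 1 member, TRIM8, with the GC correction, against 5.75% of all rows. With 1 library left out there were 1 to 4, against 5.95% to 7.39% of all rows. The median log2 fold change of the members was 0.026 with median scaling, 0.017 with quantile normalization, 0.084 with the GC correction, and −0.15 to −0.018 with 1 library left out. Ubiquitin, E1 and E2 genes past the adjusted p numbered 1 with a pseudocount of 1 or 0.01, no filter, median scaling, quantile normalization, no trend or a robust fit. In these settings 1.76% to 6.99% of all rows passed. With 1 library left out they numbered 0 to 3. TRIM28 partners numbered 0 with no filter or no trend (1.76% and 5.60% of all rows), and 1 with median scaling (5.74% of all rows). They numbered 6 with the GC correction (14.8% of all rows), and 0 to 1 with 1 library left out.

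Signs turned with the GC correction in TRIM14 (0.013), TRIM26 (0.19), TRIM28 (0.084), TRIM39 (0.18), TRIM47 (0.14) and TRIM73 (0.083), with median scaling in TRIM26 (0.062) and TRIM39 (0.086), and with quantile normalization in TRIM26 (0.019) and TRIM39 (0.12). With 1 library left out, log2 fold changes ran from −0.026 to 0.13 in TRIM21, −0.070 to 0.030 in TRIM26, −0.30 to 0.028 in TRIM28, −1.95 to 0.026 in TRIM32, −0.24 to 0.53 in TRIM38, −0.17 to 0.18 in TRIM39 and −0.025 to 0.51 in TRIM59. The cause was not tested.

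With the replicate number as a block, 0 members, 0 ubiquitin, E1 and E2 genes and 0 TRIM28 partners passed the adjusted p, as did 0 of all rows. In that fit 3 members passed the fold and unadjusted p, as did 6.24% of all rows. Same-numbered libraries correlated by 0.113, 0.036 and 0.033 in their deviations from the group means. GapNC 1 and GapNC 2 correlated best with the GapC9 library of the same number, whereas GapNC 3 correlated best with GapC9 2 (0.087). These values do not settle whether same-numbered libraries were paired, and the labels do not say.

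With 3 libraries per group, a FPKM table and a single line, members near the filter are the least precise. With 1 library left out, 32 to 810 of all 16028 rows passed the adjusted p, against 1120 with all 6. CASC9 was near 0 in all libraries and gives no check of the knockdown.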

Other observations

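Rows that carry a TRIM name without being numbered TRIM genes were read after the family. The antisense gene TRIM52-AS1, in a row joined with AC008443.1, read 0.904, 0.844 and 0.887 FPKM in GapNC and 1.62, 1.41 and 1.57 FPKM in GapC9. Its groups were tight and apart, and it rose by a log2 fold change of 0.74 (SE 0.12, limma adjusted p = 0.0314). TRIM52 itself, a ligase with a short open reading frame and an enlarged RING, lay between 0.940 and 1.28 FPKM in GapNC and between 1.18 and 1.24 FPKM in GapC9, with overlapping groups (log2 fold change 0.18, limma adjusted p = 0.505). The difference between the 2 genes was not tested, and the annotation used lists no overlap of TRIM52 with TRIM52-AS1. AC008443.1, in the same row as TRIM52-AS1, overlaps TRIM41 on the opposite strand. Reads from that overlap cannot be told apart unless strand was used. Fits with 1 library left out are not reported for the row of TRIM52-AS1.

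TRIM31-AS1 read 0.0715, 0.350 and 0.370 FPKM in GapNC and 0.0492, 0.0729 and 0.0385 FPKM in GapC9. GapNC 1 lay within the range of GapC9, and the row met the fold and the unadjusted p (log2 fold change −1.11) but not the adjusted p (limma adjusted p = 0.184). The row passed the filter of 0.1 FPKM only through GapNC (mean 0.264 FPKM, against 0.0535 FPKM in GapC9). A row that passes in this way can hardly be called higher in GapC9, so no change is read from it. TRIM31, its partner, was below the filter. The read-through TRIM6-TRIM34 was listed at 0 in 3 libraries and reached 0.204 FPKM at most, and the pseudogene TRIM80P lay between 0.0633 and 0.157 FPKM.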
